A study of Mus musculus with 24 samples.

Results

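The genes described here carry the names of RIKEN mouse cDNA clones of 1 numbered series, such as 4933402P03Rik, a run of clones drawn largely from testis libraries. A gene was a member when its symbol began with the same 4 digits as that example, followed by 3 digits, a capital letter, 2 digits and the ending Rik, with 4933406K04Rik left out. Of the 24456 genes counted, 107 were members. RefSeq classed 72 of them as long non-coding RNAs (lncRNAs), 30 as protein coding and 5 as transcribed pseudogenes, and it gave 10 a newer symbol, among them Spem2 (4933402P03Rik), Stpg3 (4933433C11Rik), Terb2 (4933406J08Rik) and Taf7l2 (4933416C03Rik). Testes of male pups, either wild type (WT) or carrying an *Atad2* knockout on both alleles (KO), were taken for RNA sequencing at 20, 22, 24 and 26 days after birth, with 4 libraries of each genotype at days 20 and 22 and 2 at days 24 and 26, 24 in all. The KO allele was made from a knockout-first allele recombined in the germ line by a Cre under the CMV promoter, so that the ATAD2 part of the protein was cut short and joined to β-galactosidase, and the deletion was present in every tissue of the animal. The labels number the libraries as replicates without saying whether each came from 1 animal, so the p-values measure the spread between these libraries.

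In the mouse the first wave of spermatogenesis runs in step, so that testes taken on successive days before puberty hold germ cells of increasingly late stages. Pachytene spermatocytes are followed by round spermatids, the haploid cells in which many testis-restricted genes are first transcribed, and then by elongating spermatids, which pack their DNA with protamines. The testis transcribes a large number of lncRNAs and genes of unknown function, many of which received only a clone name. ATAD2 is a bromodomain and AAA-ATPase protein of chromatin that is abundant in germ cells.

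Start-site windows of 300 bases, 250 before to 50 after the first annotated start (RefSeq, GRCm38.p6), were matched to 84 of the 107 members. These windows held few CpG dinucleotides, with a median of 4 against 7 in the windows of all 27025 RefSeq genes. Windows with 3 or fewer CpGs made up 47.6% (40 of 84) for the members and 31.9% for all genes. The following 6 windows, each printed 5′ to 3′ with every CG in capitals, are examples of low and high CpG content, taken from 3 members that rose steeply with age, 2 abundant members that rose less and 1 that fell. They are those of 4933402P03Rik at chr11:69818414-69818713 on the minus strand, 4933417A18Rik at chr13:34924159-34924458 on the plus strand, 4933436I01Rik at chrX:67921401-67921700 on the minus strand, 4933416C03Rik at chr10:116113868-116114167 on the minus strand, 4933415F23Rik at chr1:23102204-23102503 on the minus strand and 4933427D06Rik at chr6:89095860-89096159 on the plus strand.
4933402P03Rik: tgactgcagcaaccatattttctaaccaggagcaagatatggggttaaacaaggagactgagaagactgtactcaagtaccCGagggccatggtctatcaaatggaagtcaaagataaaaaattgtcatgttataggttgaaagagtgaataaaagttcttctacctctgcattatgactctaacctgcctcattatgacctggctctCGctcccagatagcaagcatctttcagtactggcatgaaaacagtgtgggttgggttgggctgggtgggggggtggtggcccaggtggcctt
4933417A18Rik: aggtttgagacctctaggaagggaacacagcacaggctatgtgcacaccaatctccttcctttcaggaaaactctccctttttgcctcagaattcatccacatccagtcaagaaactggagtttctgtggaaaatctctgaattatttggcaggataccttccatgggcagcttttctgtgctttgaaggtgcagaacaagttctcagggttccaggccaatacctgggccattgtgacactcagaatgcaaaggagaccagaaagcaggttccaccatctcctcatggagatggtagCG
4933436I01Rik: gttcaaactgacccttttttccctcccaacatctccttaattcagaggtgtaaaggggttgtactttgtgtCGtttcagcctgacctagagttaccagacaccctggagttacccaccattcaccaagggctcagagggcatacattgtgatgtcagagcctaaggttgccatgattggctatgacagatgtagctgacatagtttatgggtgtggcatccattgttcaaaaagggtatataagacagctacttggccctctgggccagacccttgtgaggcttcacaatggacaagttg
4933416C03Rik: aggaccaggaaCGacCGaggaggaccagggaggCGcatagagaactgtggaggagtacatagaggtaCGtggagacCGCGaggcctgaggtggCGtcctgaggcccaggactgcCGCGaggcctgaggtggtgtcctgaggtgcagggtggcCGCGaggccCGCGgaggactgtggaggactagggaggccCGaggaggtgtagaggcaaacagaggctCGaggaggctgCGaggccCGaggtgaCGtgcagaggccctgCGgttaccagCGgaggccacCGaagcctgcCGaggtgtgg
4933415F23Rik: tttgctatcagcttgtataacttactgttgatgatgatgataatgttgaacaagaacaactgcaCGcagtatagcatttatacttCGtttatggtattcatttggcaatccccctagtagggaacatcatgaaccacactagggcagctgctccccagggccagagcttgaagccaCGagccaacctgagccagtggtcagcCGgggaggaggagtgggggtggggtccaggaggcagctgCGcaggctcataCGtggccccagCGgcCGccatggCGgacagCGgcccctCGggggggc
4933427D06Rik: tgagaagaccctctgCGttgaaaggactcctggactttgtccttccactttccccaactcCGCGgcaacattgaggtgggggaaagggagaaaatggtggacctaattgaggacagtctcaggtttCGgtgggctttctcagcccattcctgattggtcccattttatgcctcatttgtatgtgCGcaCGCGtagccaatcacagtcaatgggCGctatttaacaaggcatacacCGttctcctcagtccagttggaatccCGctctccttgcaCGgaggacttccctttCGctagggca
The first 3 windows held 2, 1 and 1 CpGs, and the other 3 held 22, 11 and 12. Of the 10 members with the largest fitted rise in WT among those averaging at least 1 CPM (counts scaled by library size), 6 had a window, with 0 to 4 CpGs (median 1.5). Over all members with a window the difference was smaller, with a median of 3 in those that rose in WT and 5.5 in the rest. The members averaging over 10 CPM had a median of 7, equal to that of all genes, and the other member that fell, 4933402E13Rik, had 6.

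The letters of 4 short motifs were searched in the same windows, on both strands except for TATAAA, which was searched on the gene's strand. The letters TGACGTCA, the cyclic AMP response element bound by factors such as CREM, were in 1 member window (4933417D19Rik), 1.19%, and in 1.88% of all windows. Its shorter core TGACG was in 11.9% of member windows and 21.0% of all windows, and TATAAA, the TATA box, in 7.14% and 8.88%. CAACNG, letters contained in sites of the MYB family, was in 40 member windows, 47.6%, and in 35.1% of all windows. Overlaps between motifs were allowed, and a match is a description of the letters only.

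Assigned read counts per library ranged from 10709667 to 19491935, and between 74 and 104 members had at least 1 count in a library. *Atad2* itself was at 76.1 to 171 CPM in the WT libraries and at 30.8 to 53.0 CPM in the KO libraries, without overlap on any day. All 8 Sertoli and all 6 Leydig cell markers were detected, so somatic cells were in the samples. A stage score was the mean log2 CPM of 9 round spermatid markers minus that of 8 pachytene markers. Each marker was first taken relative to its own mean over the 24 libraries, so a score of 0 is the average of the series. The score ran from -2.56 to -1.64 in WT at day 20 and from -1.97 to 0.24 in KO. At day 22 it ran from -0.42 to -0.11 in WT and from 0.00 to 1.13 in KO, with the libraries KO_d22_2 (the second KO library of day 22) and KO_d22_3 the furthest advanced. The 3 detected epididymal genes *Crisp1*, *Adam7* and *Spink8* summed to over 10 CPM in 9 libraries, at least 1 in every group and up to 826 CPM (WT_d24_2), and to at most 2.30 CPM in the other 15. In WT_d20_2, 13.7% of reads aligned to more than 1 place, the highest share of the 24 libraries.

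The members together took between 0.105% (WT_d20_3) and 0.254% (KO_d26_2) of the assigned counts of a library. Levels were uneven among them. Averaged over the 24 libraries, 34 members exceeded 10 CPM, 43 lay between 1 and 10 CPM and 30 were under 1 CPM, and 1 had no count at all. The 5 most abundant members held 45.2% of all member counts. Of the 107, 95 passed the filter on low counts and were tested, and the 12 that did not had between 0 and 70 counts over all libraries.

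**Figure D1:**
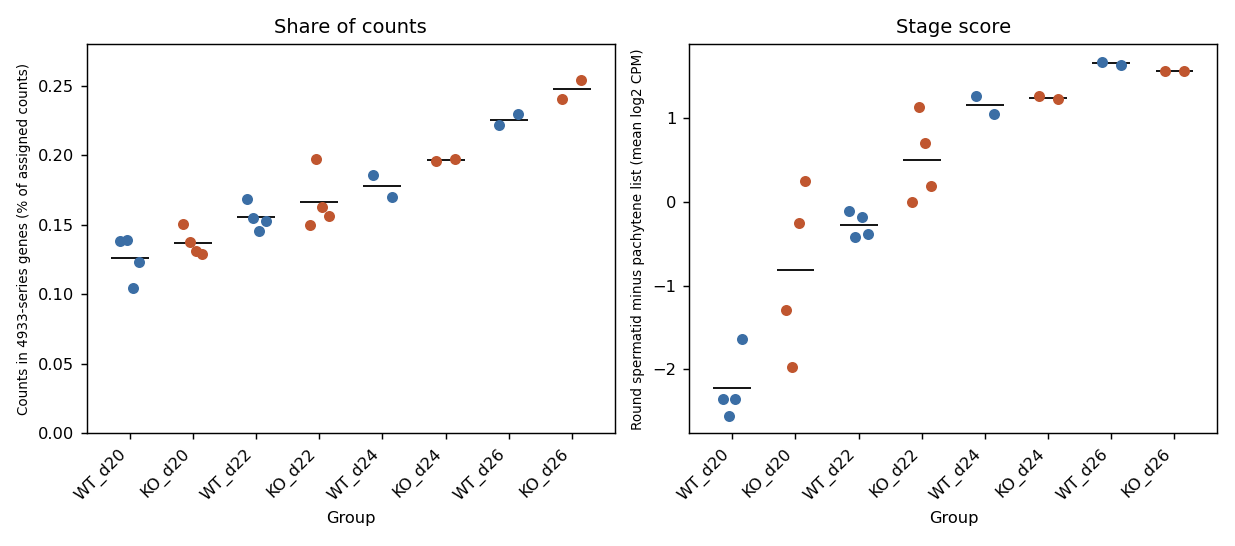
Share of assigned counts that fell in the members (left, %) and stage score (right, log2 units) in each library, by group, with WT in blue and KO in red and a line at the group mean. The share rose from the day 20 groups, all at or under 0.151%, to the day 26 groups, all at or over 0.222%, and the stage score of KO exceeded that of WT most at days 20 and 22.

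The most abundant member was 4933415F23Rik (Ppp1r14bl, a relative of a protein phosphatase 1 inhibitor) on chromosome 1, with an average of 232 CPM and also the highest level per kb of exon, 130 CPM per kb. Its levels in WT were 183, 177, 114 and 139 CPM at day 20, 257, 210, 212 and 230 at day 22, 257 and 232 at day 24, and 286 and 332 at day 26. It was therefore high in every library and rose about 1 log2 unit over the 6 days in WT (1.01 ± 0.18, SE, adjusted p = 0.000129). Second was 4933416C03Rik (Taf7l2, a relative of the TFIID subunit TAF7), with 121 to 163 CPM in WT at day 20 and 209 and 252 CPM at day 26. In 4933440M02Rik, a lncRNA on chromosome 7, the WT libraries of day 20 stood at 152, 243, 91.6 and 129 CPM and those of day 26 at 109 and 124 CPM. The value of 243 CPM belonged to WT_d20_2, and the groups overlapped (log2 change -0.40 ± 0.25, adjusted p = 0.197). 4933404O12Rik, a lncRNA of chromosome 5, kept 83.5 to 142 CPM in WT at day 20 and 88.0 and 99.4 CPM at day 26, with no call in any comparison. Per kb of exon, 4933402E13Rik was the third of the members at 46.5, 4933427E11Rik had 34.8 and 4933411K16Rik had 32.4 CPM per kb.

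Most members rose in WT between day 20 and day 26. Of the 95 tested, 66 were higher at day 26, 2 were lower and 27 did not pass, against backgrounds of 24.4% of all genes higher and 18.1% lower among the 17170 tested (edgeR quasi-likelihood test, adjusted p under 0.05 over all genes, here and below). The median log2 change of the tested members was 1.68, and that of all genes was -0.04. Because a member silent at day 20 could pass the filter through day 26 alone, these figures describe the tested members and are no evidence by themselves. In 51 of the 66 the group mean increased at each of the 3 steps between ages. A rise in a whole testis can come from more cells that carry the transcript or from more transcript in each cell, and the libraries cannot tell these apart.

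Among the risers with an average of at least 1 CPM, 4933402P03Rik (Spem2, a relative of the spermatid maturation protein SPEM1) on chromosome 11 had the largest fitted change, which rests on day 20 counts near 0. Its levels in WT were 0.00, 0.00, 0.0578 and 0.00 CPM at day 20, 1.20, 0.335, 0.291 and 0.102 at day 22, 14.2 and 13.2 at day 24, and 66.5 and 47.6 at day 26. The WT libraries of each age lay above all those of the age before. Since day 20 was at or under 3 counts in each library, the change is given as at least 242-fold higher at day 26 (adjusted p = 5.49e-07). 4933433C11Rik (Stpg3, named for repeats found in sperm tail proteins) rose from at most 0.0720 CPM in every WT library of day 20 to 34.1 and 30.8 CPM at day 26, at least 138-fold. The protein-coding 4933417A18Rik on chromosome 13, which was above the floor at day 20, rose from 0.00, 0.105, 0.289 and 0.360 CPM to 62.0 and 58.4 CPM (log2 change 8.15 ± 0.85, adjusted p = 4.63e-07). Its day 22 libraries at 3.43 to 6.83 CPM and day 24 libraries at 34.9 and 23.1 CPM lay between without overlap.

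Steep rises were also measured in lncRNAs. 4933404G15Rik on chromosome 16 rose from 0.0578 to 0.504 CPM at day 20 to 51.3 and 55.0 CPM at day 26 (log2 change 7.95 ± 0.95). 4933436H12Rik and 4933407I05Rik had no count in any of the 4 WT libraries of day 20 and stood at 5.27 and 5.31 CPM, and at 2.78 and 2.65 CPM, at day 26, which were at least 22.5-fold and at least 11.6-fold higher. In all, 25 of the 66 risers were at the floor of 3 counts per library throughout WT at day 20, so their change is a lower bound. By class, 24 of 29 tested protein-coding members, 38 of 61 tested lncRNAs and 4 of 5 pseudogenes rose. Protein-coding members were also the more abundant class, with a median of 16.4 CPM over the 29 tested against 2.34 CPM over the 61 tested lncRNAs.

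Both members that fell in WT also fell in KO. 4933427D06Rik, a lncRNA on chromosome 6, went from 26.0, 32.2, 21.2 and 24.3 CPM in WT at day 20 to 13.0, 15.3, 13.4 and 10.8 at day 22, 10.6 and 11.3 at day 24, and 9.04 and 9.69 at day 26. Every library of day 20 was above every later one, and the log2 change was -1.47 ± 0.19 (adjusted p = 2.3e-06). The X-linked, protein-coding 4933402E13Rik went from 117, 230, 126 and 127 CPM to 64.9 and 70.8 CPM (log2 change -1.14 ± 0.22, adjusted p = 0.000311). Its high value of 230 CPM was again in WT_d20_2, and the groups did not overlap with or without it. The call held without that library. Over the same ages all 9 round spermatid and all 8 elongating spermatid markers rose in WT, as did 5 of 8 pachytene and all 6 Leydig cell markers, while 5 of 8 Sertoli cell, 3 of 5 peritubular and 4 of 6 spermatogonia markers fell. The Leydig cell markers summed to 260 to 376 CPM in WT at day 20 and to 1095 and 1805 CPM at day 26, and their part in the members' changes was not tested.

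**Figure D2:**
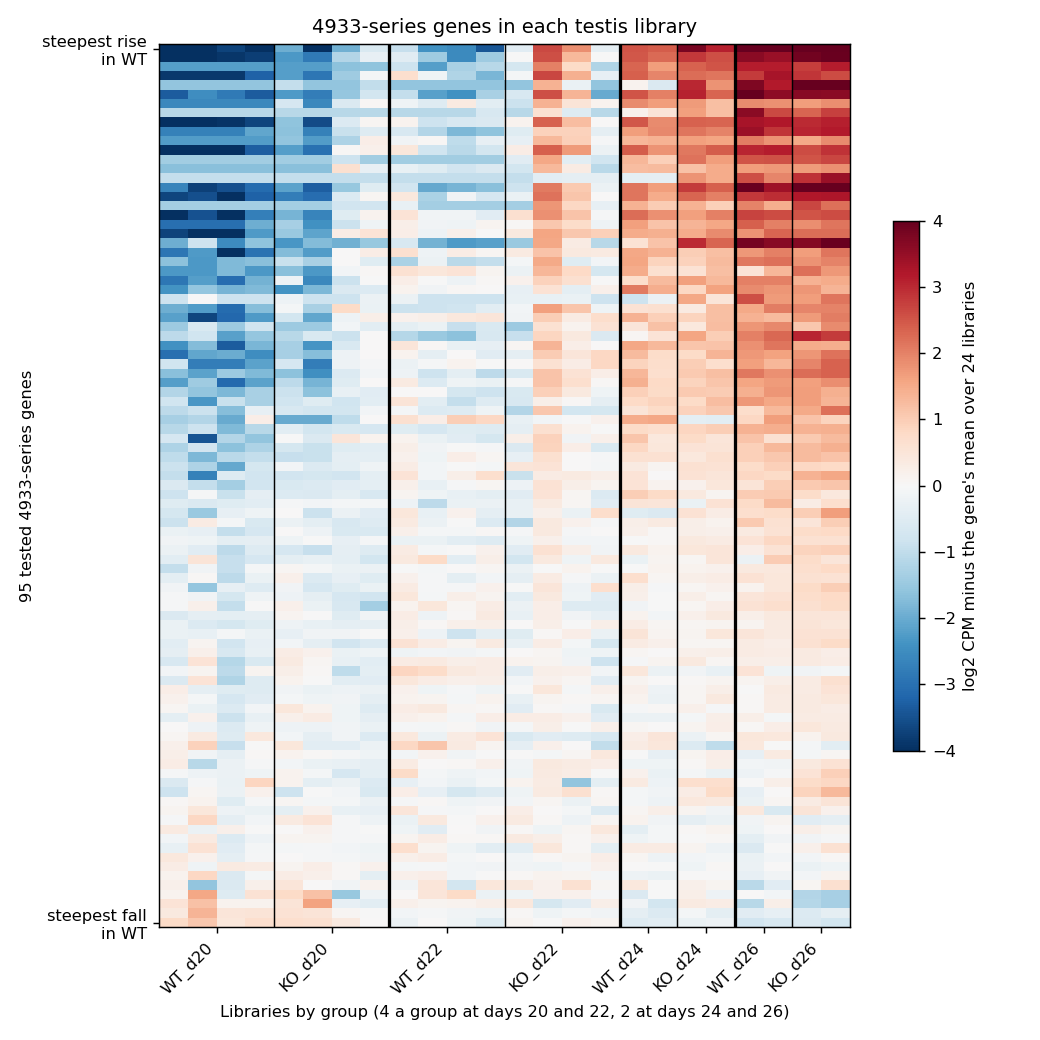
Heat map of the 95 tested members (rows, ordered by their WT change from day 20 to day 26) in the 24 libraries (columns, by group). Colour is the log2 CPM minus the gene's mean over all libraries. The upper rows turn from low in WT_d20 to high at day 26, KO_d20_3 and KO_d20_4 lie above the other day 20 libraries there, and KO_d22_2 and KO_d22_3 lie above the other day 22 libraries.

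The X chromosome held 7 members and the Y chromosome none. Of the 6 X-linked members tested, 5 rose in WT and only 4933402E13Rik fell. 4933436I01Rik, a protein-coding gene, had a single count in the WT libraries of day 20 (0.0720 CPM in WT_d20_4) and 13.2 and 19.0 CPM at day 26, at least 68.5-fold more. 4933400A11Rik, a transcribed pseudogene, rose from at most 0.105 CPM to 22.6 and 15.8 CPM, at least 81.7-fold. Reads of a pseudogene may also fit its parent gene, and reads that aligned to more than 1 place were not counted, so pseudogene levels are uncertain.

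In KO, 72 of the 95 tested members were higher and 5 lower at day 26 than at day 20, against 27.2% and 24.9% of all genes. Of the 66 WT risers, 64 were also called in KO. The 3 members called lower in KO and not in WT were 4933401D09Rik (log2 change -2.26 ± 0.67), 4933400C23Rik and 4933431E20Rik (-0.37 ± 0.15). All 3 are named here after their values were seen. 4933401D09Rik had 4 counts in each KO library of day 26. 4933400C23Rik was at the floor there, at 0.207 and 0.172 CPM, so its fitted change is not given. Its KO libraries of day 20, at 1.16, 1.57, 0.132 and 0.542 CPM, overlapped those of day 26. No member's change from day 20 to day 26 differed between the genotypes in edgeR, nor did that of any gene (backgrounds of 0% in either direction). At an unadjusted p under 0.05 there were 25 members, 26.3% of those tested, beside 10.8% of all genes. DESeq2 called 5 members, all with a lower change in KO than in WT, against 0.845% of all genes lower and 0.14% higher. Leaving out KO_d20_2 gave 10 such members in edgeR, against 1.87% of all genes lower and 0.035% higher.

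At day 20 all members called between the genotypes were higher in KO. There were 14 of them and none lower, against backgrounds of 2.98% of genes higher and 0.361% lower, and all 14 were among the WT risers. The day 20 contrast shares its WT libraries with the WT change over age, so that a low WT value at day 20 enters both. The 4 protein-coding and 10 lncRNA members called included 9 with WT above the floor, whose log2 differences ran from 0.86 to 4.17. In 10 of the 14 every KO library lay above every WT library, as in 53.8% of the 511 genes called higher. Over all 95 tested members 17 lay above WT without overlap and 0 below, beside 3.03% and 1.68% of all genes. Over the tested members the median log2 difference was 0.33, against 0.00 for all genes, and it was 0.13 with members at the floor set to their lower bound.

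4933417O13Rik, a lncRNA annotated antisense to another gene on chromosome 7, had the smallest p. It stood at 0.236, 0.00, 0.0578 and 0.216 CPM in WT and at 0.871, 0.262, 1.32 and 1.83 CPM in KO. The groups did not overlap, and because WT was at the floor the difference is given as at least 4.55-fold (adjusted p = 0.00795). 4933400F21Rik, a lncRNA on chromosome 1, was at 0.471, 0.211, 0.00 and 1.51 CPM in WT and 2.68, 1.70, 9.51 and 11.4 CPM in KO (log2 difference 3.51 ± 0.67, adjusted p = 0.00922). 4933405O20Rik, a single-exon protein-coding gene of chromosome 7, was at 0.0786, 0.632, 0.116 and 1.15 CPM in WT and at 2.25, 1.24, 6.08 and 9.35 CPM in KO (3.30 ± 0.70, adjusted p = 0.0136). In both genes KO_d20_3 and KO_d20_4 were the highest KO libraries and lay near or above the WT libraries of day 22, which held 6.69 to 9.30 CPM of 4933400F21Rik and 6.19 to 12.5 CPM of 4933405O20Rik.

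The same order of KO libraries recurred. 4933417A18Rik was at 1.96, 0.392, 4.16 and 6.57 CPM in KO against at most 0.360 CPM in WT (log2 difference 3.95 ± 0.91, adjusted p = 0.0192). The lncRNA 4933404G15Rik was at 1.23, 0.654, 6.34 and 7.18 CPM in KO against at most 0.504 CPM in WT (4.17 ± 0.99, adjusted p = 0.0226). Both were without overlap between the genotypes. Among the 9 called members with WT above the floor, the smallest difference was that of 4933431G14Rik, an antisense lncRNA of chromosome 6. It was at 3.85, 2.95, 1.62 and 4.32 CPM in WT and 6.60, 4.77, 5.35 and 6.30 CPM in KO (0.86 ± 0.22, adjusted p = 0.034). Of the called members, 5 had WT at the floor, and their lower bounds ran from 1.53-fold for 4933407I05Rik to 5.72-fold for 4933433G08Rik. The remaining members called were 4933406G16Rik, 4933402D24Rik, 4933432I09Rik, 4933402C06Rik, 4933424G06Rik and 4933408J17Rik.

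Markers of later germ cells moved in the same direction at day 20. Of 9 round spermatid markers 7 were higher in KO, as were 4 of 8 elongating spermatid and 2 of 8 pachytene markers, and none was lower. The round spermatid markers summed to 141 to 174 CPM in WT and 190 to 289 CPM in KO. With the stage score in the model no member was called at day 20, beside 0.0524% of all genes higher. The fit to the 8 day 20 libraries alone called 0 members and 0 genes higher, but 9 of the 14 members did not pass its filter on low counts and were not tested there. The count fell to 2 without WT_d20_3, 4 without KO_d20_4, 5 without KO_d20_3, 7 without WT_d20_1 and 8 without WT_d20_2. The share of all genes called higher fell too, from 2.98% to 0.596%, 0.925%, 1.44%, 1.32% and 1.51% in the same order. The count was 0, of the members as of all genes higher, without the 9 libraries that held epididymal transcripts.

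At day 22, 7 members were higher and 1 was lower in KO, against backgrounds of 1.26% and 1.25%. None of them was among the 14 of day 20. Without overlap between the genotypes, 8 tested members lay above and 6 below WT, beside 3.64% and 4.45% of all genes. 4933402P03Rik (Spem2) had the smallest p, with 1.20, 0.335, 0.291 and 0.102 CPM in WT and 1.69, 15.6, 8.83 and 1.81 CPM in KO. The KO libraries lay above the WT ones without overlap, KO_d22_2 furthest (log2 difference 3.92 ± 0.77, adjusted p = 0.0147). 4933433C11Rik (Stpg3) was at 1.90, 0.920, 0.349 and 0.921 CPM in WT and 2.66, 16.7, 6.72 and 2.62 CPM in KO (2.83 ± 0.59, adjusted p = 0.0182). 4933411K16Rik, a single-exon protein-coding gene on chromosome 19, was at 6.69, 2.68, 3.03 and 3.48 CPM in WT and 6.41, 48.7, 23.9 and 9.79 CPM in KO. Here KO_d22_1 fell within the WT range and KO_d22_2 lay within the range of the WT libraries of day 24, 50.3 and 36.3 CPM (2.49 ± 0.56, adjusted p = 0.0263).

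The other members higher in KO at day 22 included the X-linked pseudogenes 4933401B06Rik and 4933400A11Rik. 4933401B06Rik was at 0.422, 0.251, 0.117 and 0.153 CPM in WT and 0.484, 1.503, 1.516 and 0.536 CPM in KO, without overlap. In 4933400A11Rik the KO libraries were at 0.726, 7.88, 3.29 and 0.201 CPM and the WT libraries at 0.117 to 0.563 CPM, so KO_d22_4 lay within the WT range (3.23 ± 0.81, adjusted p = 0.0397). This call was lost in 16 of the 24 fits that left out 1 library. It was also lost without the filter on low counts and with a block for the replicate number. 4933427G17Rik (Mfsd13b, of a family of membrane transporters) was at 18.6, 16.2, 18.4 and 17.9 CPM in WT and at 20.3, 40.6, 28.5 and 25.8 CPM in KO (0.70 ± 0.17, adjusted p = 0.0355). The last was 4933417G07Rik, at the floor in WT and at least 1.55-fold higher in KO.

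The lncRNA 4933430H16Rik of chromosome 7 was the only member called lower in KO by edgeR with all 24 libraries and no covariate. At day 22 it was at 4.08, 2.51, 3.79 and 4.45 CPM in WT and 1.94, 2.16, 2.04 and 1.88 CPM in KO. Every KO library was below every WT library (log2 difference -0.89 ± 0.21, adjusted p = 0.0278). That call was lost in 4 of the 24 fits that left out 1 library. It was also lost with a block for the replicate number and in the fit to the day 22 libraries alone. At day 20 its WT libraries spanned 2.08 to 4.03 CPM and its KO libraries 2.03 to 2.76 CPM, overlapping (-0.41 ± 0.21, adjusted p = 0.445). At days 24 and 26 its differences were -0.44 ± 0.29 and -0.17 ± 0.28, neither called. It did not pass the test for a change with age in either genotype. Over the mean of the 4 days it was lower in KO by 0.48 ± 0.12 on the log2 scale (adjusted p = 0.0283) and with the stage score in the model the value was -0.51 ± 0.15 (adjusted p = 0.0974).

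With the stage score in the model 1 other member was called over the mean of the days (0.268% of all genes higher and 1.14% lower), 4933408N05Rik, an antisense lncRNA of chromosome 8, named here after its values were seen. At day 22 it was at 0.704, 0.502, 0.932 and 0.818 CPM in WT and 0.303, 0.361, 0.396 and 0.469 CPM in KO. At day 24 it was at 1.37 and 1.43 CPM in WT and 0.276 and 0.262 CPM in KO. The genotypes did not overlap on either day, and they overlapped at days 20 and 26. The mean difference was -1.91 ± 0.43 with the stage score (adjusted p = 0.0222) and -0.98 ± 0.38 without it (adjusted p = 0.115), where it was not called.

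**Figure D3:**
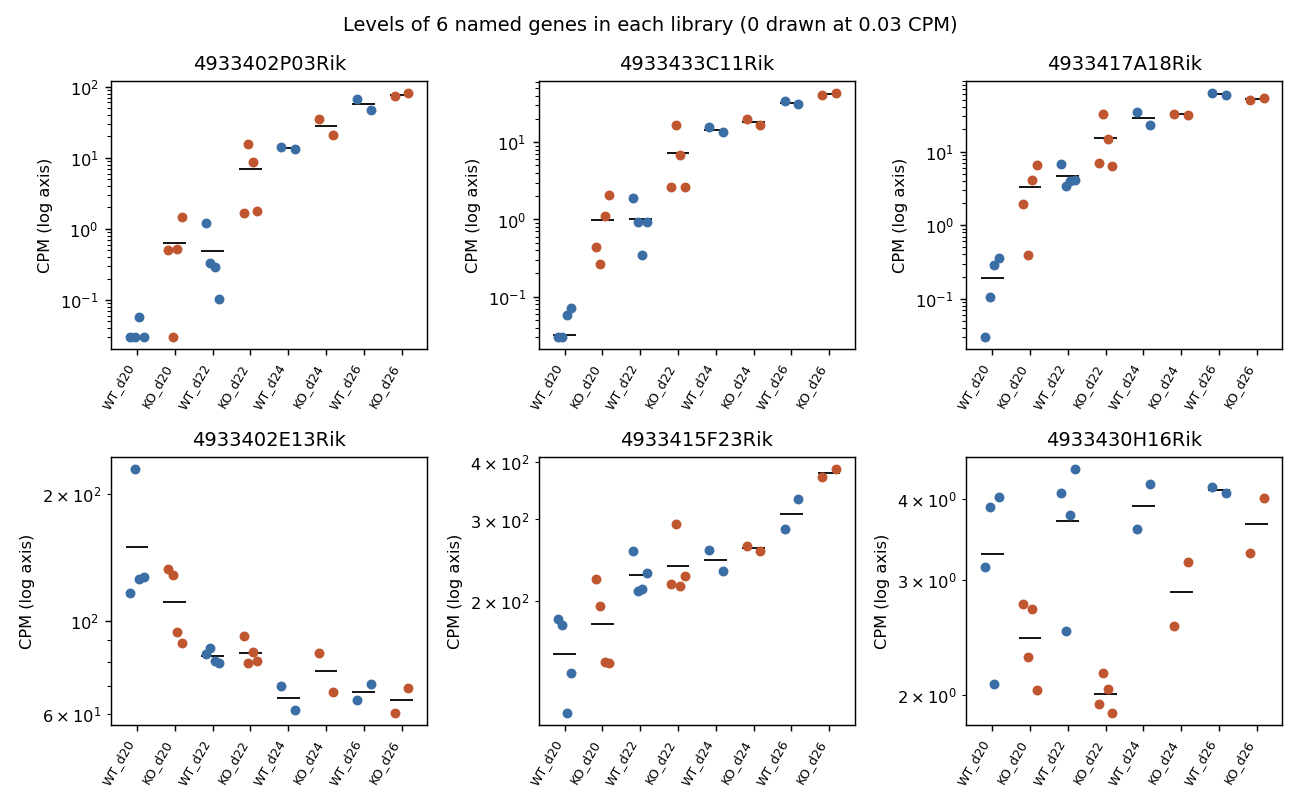
CPM in every library (points, log axis, WT blue and KO red, line at the group mean) of 3 steep risers, the X-linked faller 4933402E13Rik, the most abundant member 4933415F23Rik, and 4933430H16Rik. The risers have higher means in KO than in WT at days 20 and 22 and no call at day 26, while 4933430H16Rik at day 22 holds every KO library under 2.17 CPM and every WT library over 2.50 CPM.

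The day 22 libraries have none in common with the WT libraries of days 20 and 26, so the KO difference at day 22 can be set beside the WT change with age. Among the 66 members that rose in WT, 58 had a positive log2 difference at day 22, with a median of 0.56 and 7 called higher. Among the 27 that did not pass with age, 9 were positive, with a median of -0.03 and none called higher. The 2 members that fell in WT were both positive, with a median of 0.18 and none called. Over all genes the risers were the most often positive. Of those that did not pass 44.8% were positive, and of those that fell 43.8%. Of 4183 genes that rose in WT, 75.3% were positive and 4.73% called higher at day 22, and of the 1087 that rose by over 4 log2 units 96.4% were positive and 15.5% called higher. The 35 members with such a rise were all positive at day 22, and 6 (17.1%) were called higher, a share close to that background. These rises are fitted values. Members at the floor in WT at day 20 can have a lower bound under 4, as 4933407I05Rik does (fitted 8.36, log2 bound 3.53).

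**Figure D4:**
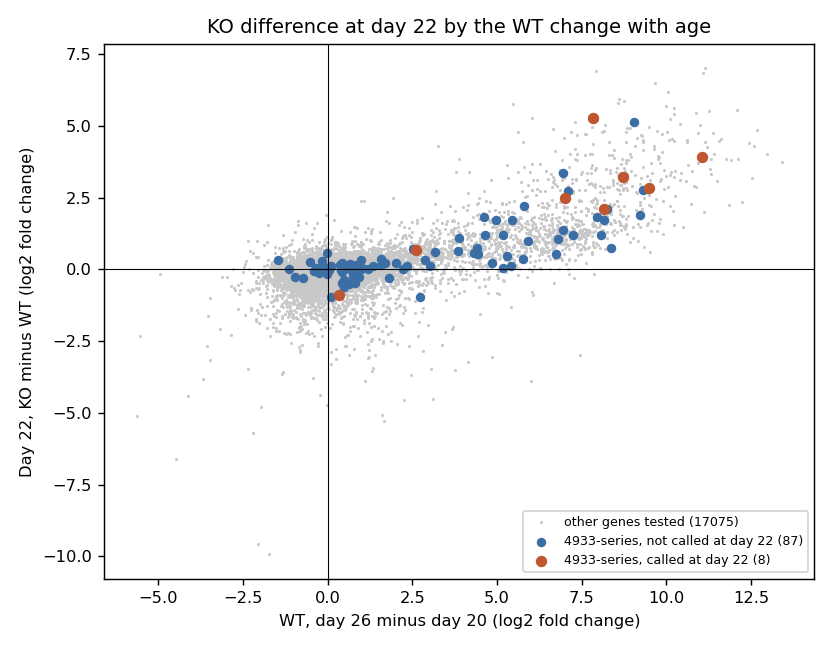
KO minus WT at day 22 (log2) against the WT change from day 20 to day 26 (log2) for each tested gene, with members in blue or, where called at day 22, in red. Members with a WT change over 4 lie above 0 at day 22, as do most other genes with such a change, and the single member called lower lies near a WT change of 0.

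As at day 20, stage markers stood with this result. At day 22, 4 of 8 elongating spermatid markers were higher in KO, and their sum was 47.8 to 119 CPM in WT and 109 to 711 CPM in KO. None of the 9 round spermatid markers passed. With the stage score in the model no member was called, beside 0.0291% of all genes higher and 0.39% lower. The fit to the day 22 libraries alone called 0 members, but 3 of the 8 members called with all libraries did not pass its filter and were not tested there (0.0572% of all genes higher and 0.381% lower). The count was 0 without KO_d22_2, 0 without WT_d22_3, 0 without WT_d22_4, 2 without WT_d22_2 and 17 without KO_d22_1. All genes called higher made up 0.111%, 0.07%, 0.035%, 0.192% and 2.89% in the same order, against 1.26% with all libraries. The count was 5 without any 1 of KO_d24_1, KO_d24_2, KO_d26_1 and KO_d26_2, beside 0.886% to 0.911% of all genes higher and 0.939% to 0.984% lower. It was 0 without the 9 libraries with epididymal transcripts, beside 0% higher and 0.111% lower. A block for the replicate number left 3 members, beside 1.03% of genes higher and 1.1% lower.

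Over the mean of the 4 days, 15 members were higher and 1 was lower in KO, against 3.52% and 3.56% of all genes. Of these 16, 6 were also called at day 20 and 6 at day 22. The 4 called here alone were 4933413G19Rik (Tex52, a testis-expressed gene), 4933433G15Rik, 4933404K08Rik and 4933402J07Rik. 4933413G19Rik was at 2.32 and 2.80 CPM in WT and 4.82 and 4.02 CPM in KO at day 26, and its mean difference over the days was 1.29 ± 0.31 (adjusted p = 0.0198). Among the members called, the largest fitted mean differences were those of 4933402P03Rik (2.49 ± 0.55) and 4933433C11Rik (1.99 ± 0.43). Both were at the floor in WT at day 20, so the day 20 part of these means rests on counts near 0. Over the mean of the days 7 of 8 elongating and 5 of 9 round spermatid markers were higher in KO, as was 1 of 6 Leydig cell markers, and 2 of 5 markers of peritubular cells were lower. None of the 16 calls was kept with the stage score in the model or without the 9 libraries with epididymal transcripts. DESeq2 called 28 members higher and 1 lower, against 4.83% and 3.5% of all genes. The count of members called was 4 without KO_d24_1, WT_d24_2 or KO_d26_2, 5 without WT_d26_2, 6 without KO_d24_2 or WT_d26_1, 8 without KO_d26_1, 9 without WT_d22_4, 10 without WT_d24_1 and 27 without KO_d20_2. Over these fits the share of all genes called higher ran from 0.642% (without WT_d24_2) to 5.45% (without KO_d20_2).

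No member was called at day 24 or at day 26 in edgeR or in DESeq2 with all 24 libraries in the fit. All genes gave 0.0175% higher and 0.0699% lower at day 24, and 0% higher and 0.0466% lower at day 26. At an unadjusted p under 0.05 there were 9 members at day 24 (9.47% of those tested, beside 5.23% of all genes) and 5 at day 26 (5.26%, beside 11.5%). With 2 libraries a group, 38 of 95 tested members lay above and 10 below WT without overlap at day 24, beside 22.6% and 21.4% of the 17170 genes. At day 26 these were 42 and 13 members, beside 27.8% and 31.1% of genes. The smallest p at day 24 was that of 4933433H22Rik, at the floor in WT, with 0.062 and 0.068 CPM in WT and 0.76 and 0.59 CPM in KO (adjusted p = 0.297). The next were 4933433G15Rik and 4933402N03Rik. 4933402N03Rik was at 0.310 and 0.136 CPM in WT and 3.11 and 1.24 CPM in KO (3.22 ± 1.02, adjusted p = 0.527). 4933433G15Rik, a lncRNA of chromosome 9, was at 15.6 and 14.2 CPM in WT and 22.2 and 21.6 CPM in KO (0.56 ± 0.18, adjusted p = 0.50). At day 26 the same gene was at 13.8 and 17.3 CPM in WT and 20.8 and 23.5 CPM in KO (0.51 ± 0.18, adjusted p = 0.28). Its WT and KO libraries of day 20 overlapped, at 11.7 to 18.2 and 14.0 to 17.3 CPM, and the mean over the days was 0.28 ± 0.08 (adjusted p = 0.0384). 4933404K08Rik, a lncRNA on chromosome 13, stood at 1.16 and 1.51 CPM in WT and 2.89 and 3.90 CPM in KO at day 26 (1.35 ± 0.39, adjusted p = 0.198). 4933404K13Rik stood at 6.14 and 6.74 CPM in WT and 10.26 and 13.65 CPM in KO at day 26 (0.89 ± 0.29, adjusted p = 0.253). In a fit to the 4 day 26 libraries alone, 13 members were called, 12 higher and 1 lower, against 7.51% and 5.27% of all genes in that fit.

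An annotated start on the opposite strand lay within 2 kb of the start of 18 members. Reads were counted by strand, so overlapping partners were counted apart. Their start windows, known for 14, had a median of 19.5 CpGs, against 3.0 in the other 70. 4933417A18Rik and *Fam217a* start 99 bases apart, and both rose in WT, by 8.15 ± 0.85 and 5.25 ± 0.50 log2 units. 4933402N03Rik and 1700029B22Rik start 125 bases apart and rose by fitted values of 9.04 and 8.46, both from day 20 libraries at the floor or near it. Of the 18 pairs, both genes rose in 6, the member alone passed in 5, the partner alone in 4 and neither in 3. 4933427G17Rik (Mfsd13b) rose by 2.62 ± 0.20 while *Cdr2*, 197 bases away, had a log2 change of 0.31 ± 0.13 that did not pass, and 4933430I17Rik rose by 1.68 ± 0.21 while *Pole3* had a log2 change of 0.12 ± 0.19.

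The most abundant member of this kind, 4933427D14Rik, was at 46.4 to 68.2 CPM in WT at day 20 and at 69.9 and 81.1 CPM at day 26 (log2 change 0.37 ± 0.13, adjusted p = 0.0226), and *Txndc17*, which starts 88 bases away, had a log2 change of -0.50 ± 0.21 that did not pass. 4933406J08Rik (Terb2, needed to attach meiotic telomeres to the nuclear envelope) was at 15.4 to 35.1 CPM in WT at day 20 and at 18.2 and 21.2 CPM at day 26, with no call. Its partner *Patl2*, 83 bases away, fell by 1.54 ± 0.33 log2 units over the same ages.

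**Figure D5:**
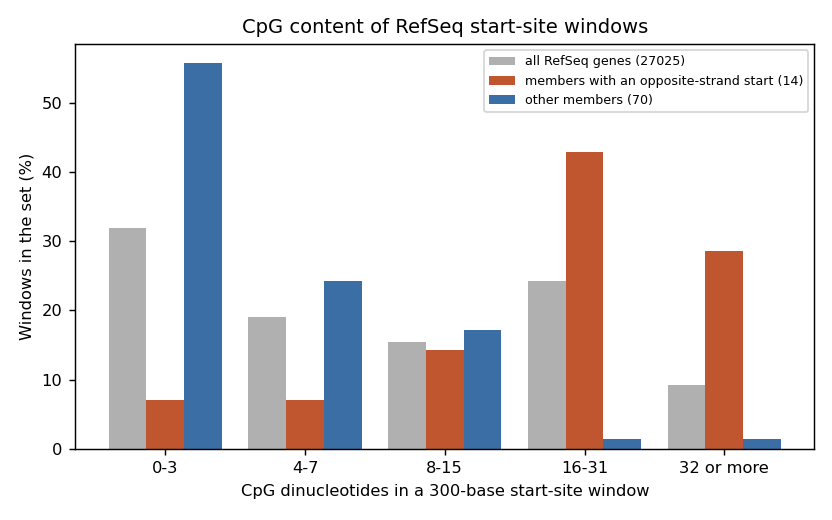
Percent of start-site windows (y axis) by their number of CpG dinucleotides (x axis) for all 27025 RefSeq genes (grey), for 14 members with an opposite-strand start within 2 kb (red) and for the other 70 members (blue). Of the 70, 55.7% have 3 or fewer CpGs, and of the 14, 42.9% have 16 to 31.

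Other clone-named genes gave counts of the same order. Of 318 tested genes of the 1700 clone series (365 genes) 76.1% rose in WT between day 20 and day 26, and of 300 tested genes of the other large clone series (366 genes) 76.0% did, beside 69.5% of the 95 tested here. At day 20, 14.5% and 13.3% of them were higher in KO, beside 14.7% here. No test of these differences was made.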

How the data were processed

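Testis RNA (ribosomal RNA removed, stranded total-RNA libraries) was sequenced in 24 libraries. The labels give 4 libraries of each genotype at day 20 where the methods of the study name 3, and all 4 were used. The deposited files hold raw read counts per gene, which the authors made with STAR 2.7.11b on mm10 without trimming and HTSeq on exons by strand, leaving out reads that aligned to more than 1 place. The gene model version is not given in the sources used here. Per the files, 45.1% to 58.5% of reads fell in no annotated exon, and these and the other summary rows were left out. The authors used DESeq2 1.22.2 downstream.

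Here edgeR 4.0.16 (TMM, filterByExpr with a minimum count of 10, robust quasi-likelihood fit of 8 groups over 24 libraries) tested 17170 genes, with Benjamini-Hochberg adjustment over all of them and calls at 0.05. Errors of log2 values are standard errors. CPM are TMM-scaled. A group with at most 3 counts in each library is at the floor. Levels near it rest on few counts. Named members are those called in KO (up to 20 by p), the 10 largest risers and the fallers in WT with at least 1 CPM, the 5 most abundant (also per kb), the 3 smallest p per day and 5 with opposite-strand starts, 37 in all. Members and lists were chosen with earlier results of these data known. On simulated counts the fit recovered 93.0% of 4-fold and 71.7% of 2-fold changes at day 22 among 16916 genes. At day 20 it recovered 89.9% and 61.2% among 16884, and for the change with age in WT 88% and 47.4% among 16914. Unchanged genes called numbered 6 at day 22, 14 at day 20 and 3 for the change with age. Each simulated gene had its mean over the 24 libraries in every group before the set changes. Recovery for genes near 0 at day 20, as many members were, was therefore not measured. GENCODE M21 and RefSeq (GRCm38.p6) placed members, 101 through GENCODE. Replicates of 1 group differed by more than counting noise in every pair. Alternatives were other size factors, filters, DESeq2 1.42.0, libraries left out, replicate blocks, a stage covariate and, added after seeing the data, the fit without libraries holding epididymal transcripts. That last fit kept 15 libraries, and the part of the smaller number in its lost calls was not tested.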

Additional observations from a re-analysis of the deposited data

Results flagged for a closer look

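Among 104 groups of 4 libraries, covering the named members and the members' share of counts, 4 held a library far from the other 3, and chance alone gives about 1 in 20 such groups. 4933402E13Rik stood at 230 CPM in WT_d20_2 against 117 to 127 CPM in the others. 4933404K13Rik stood at 12.0 CPM in WT_d22_1 against 6.23 to 6.69 CPM. KO_d22_2 held 294 CPM of 4933415F23Rik against 215 to 226 CPM, and 4.63 CPM of 4933433G08Rik against 2.602 to 2.702 CPM.

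For 5 named members every KO library lay above every WT library on 1 day and below on another. The difference between the days was not tested, and with 2 libraries a group at days 24 and 26 such separation was common among all genes. The ratio of KO to WT means was 18.7 at day 20 and 0.797 at day 26 for 4933404G15Rik, 17.3 and 0.864 for 4933417A18Rik on the same days, and at least 5.72 (WT at the floor) at day 20 and 0.763 at day 24 for 4933433G08Rik. It was 1.40 at day 24 and 0.663 at day 26 for 4933402D24Rik, and 0.730 at day 22 and 1.07 at day 26 for 4933427E11Rik.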

How the results depend on the processing

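All 12 named changes with age in WT kept their direction and call under every alternative run. The KO calls did not. With the stage score as covariate the members called in KO numbered 0 at day 20, 0 at day 22 and 1 over the mean of the days (4933408N05Rik), and without the 9 libraries holding epididymal transcripts they numbered 0, 0 and 0. Fits to the compared libraries alone gave 0 at day 20, 0 at day 22 and 13 at day 26 (there 7.51% of all genes higher and 5.27% lower). In these fits 9 of the 14 members called at day 20 and 3 of the 8 called at day 22 were below the filter and not tested. DESeq2 gave 29 over the mean of the days, beside 4.83% of all genes higher and 3.5% lower. It gave 5 for the difference between genotypes over age, beside 0.14% of all genes higher and 0.845% lower. A replicate block gave 3 at day 22. Members lower in KO at day 26 than at day 20 numbered 2 at a minimum count of 30, 3 in the libraries compared and 1 without the epididymal libraries. The cause of these moves was not tested. No named estimate reversed, and 18 of 20 named KO calls were lost in at least 1 fit that left out 1 library.

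Leaving out each library in turn gave 2 to 21 members called in KO at day 20, 0 to 17 at day 22, 4 to 27 over the mean of the days, 2 to 6 lower with age in KO, 2 to 4 lower with age in WT and 0 to 10 whose change differed between genotypes. Members higher with age ranged from 58 to 69 in WT and from 62 to 74 in KO. Correlations across genes between the deviations of same-numbered WT and KO libraries ran from 0.07 to 0.41 at day 20 and from -0.46 to -0.03 at day 22, and were 0.39 at day 24 and 0.42 at day 26. Not every pair reached 0.1, so the replicate number was not taken as a pairing. With the block, 14 members were called at day 20 (3.14% of all genes higher and 0.326% lower), 3 at day 22 (1.03% and 1.1%) and 20 over the mean of the days (4.19% and 3.37%).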
